A study of Schmidtea mediterranea with 24 samples.

Results

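In the planarian *Schmidtea mediterranea*, 71 of 16575 genes had higher mRNA values in both fibrillarin knockdowns, that of *fbl-1* and that of *fbl-2*. A gene was taken when, on the scale of log2(value + 1), the mean of the 3 knockdown libraries lay at least 0.5 above the mean of the 3 control libraries in both arms, when all 3 knockdown values lay above all 3 control values in both arms, and when the knockdown mean was 50 or more in both. The genes were thus chosen by their mRNA values in both arms. Of the 72 that met these terms, the gene matched to *ARIH1* was left out by the same rule. The mRNA differences of the 71 genes are therefore given as a description with no test. That their mRNA groups do not overlap was required by the rule. Fibrillarin is the methyltransferase of the box C/D small nucleolar ribonucleoproteins, which place 2′-O-methyl groups on ribosomal RNA in the nucleolus. Planarians regrow missing parts from neoblasts, the dividing stem cells that give rise to progenitors of the epidermis, the intestine, the protonephridia and the other tissues. Ribosome profiling (Ribo-seq) reads the mRNA fragments that ribosomes protect, called footprints, and RNA-seq of the same lysate reads the mRNA itself.

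There were 4 groups of regenerating worms at 48 hours post amputation, all fed bacteria carrying double-stranded RNA, and head, trunk and tail pieces were sampled. The *fbl-1* arm set *fbl-1* KD (4x RNAi food) against *egfp* KD, and the *fbl-2* arm set *fbl-2* KD (2x RNAi food) against *egfp* 2x KD, where *egfp* is a gene that planarians lack. Each group had 3 replicates of 30 pooled worms with an RNA-seq and a Ribo-seq library each, 24 libraries in all. Values are reads per gene that were scaled by 1 factor per library and rounded, with library totals of 8762055 to 9549828 for RNA-seq and 9116524 to 10763740 for Ribo-seq, and they are compared only within 1 arm and 1 assay. For both targeted genes the knockdown libraries, as labelled, held more of their mRNA than the controls. *fbl-1* mRNA was 143, 130 and 129 in *egfp* KD and 1383, 981 and 753 in libraries labelled *fbl-1* KD. *fbl-2* mRNA was 127, 135 and 144 in *egfp* 2x KD and 481, 773 and 982 in libraries labelled *fbl-2* KD. The cause was not tested, and every direction below is that of the libraries as labelled. The summed values of the 3 neoblast markers *piwi-1*, *VASA-1* and *MCM2* were 17823 to 19215 for *egfp* KD mRNA and 11938 to 12837 for *fbl-1* KD, and 17534 to 18275 for *egfp* 2x KD and 14797 to 16936 for *fbl-2* KD, with none of the 3 at 0 in any library. Of these 3, *piwi-1* and *MCM2* mRNA fell in the *fbl-1* arm (limma adjusted p = 0.00604 and 0.0438), and none passed in the *fbl-2* arm. The summed mRNA values of the 5 epidermal lineage markers *prog-1*, *zpuf-3*, *zpuf-4*, *AGAT-1* and *egr-5* overlapped between the groups of the *fbl-1* arm, at 3270 to 4343 and 3428 to 3706. The part of these shifts in the values of the 71 genes was not tested, and in whole-worm lysates more cells of a type and more RNA per cell cannot be told apart.

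The rule on the *fbl-1* arm alone took 408 genes (2.46% of all) and on the *fbl-2* arm alone 262 (1.58%). Of the 71 genes, 47 have a name, given by the best protein match, and 24 have none. The mRNA log2 differences ran from 0.50 to 2.46 in the *fbl-1* arm, with a median of 0.68, and from 0.50 to 1.62 in the *fbl-2* arm, with a median of 0.62. Over all genes tested the medians were −0.01 and 0.00. The difference was larger in the *fbl-1* arm for 41 genes and in the *fbl-2* arm for 30. Only 4 genes in the *fbl-1* arm and 6 in the *fbl-2* arm reached a log2 difference of 1. The genes spanned the range of levels, with control means of mRNA from 20.3 to 56265 in the *fbl-1* arm and a median of 394, where all genes tested had a median of 243. Just inside the limit of 0.5 lay SMED30009546 and SMED30011585, both with a smaller difference of 0.50. Just outside it lay *COL6A5* and *FLNC*, at 0.497 and 0.495. *A12*, with a knockdown mean of 50 in the lower arm, was the last gene inside the level limit. A larger share of the knockdown mRNA libraries follows from the rule, so the shares are a description. Together the genes took 1.6% to 1.96% of an *egfp* KD mRNA library and 2.98% to 3.16% of one labelled *fbl-1* KD. In the *fbl-2* arm they took 1.72% to 1.83% and 3.06% to 3.19%. *FCGBP* made up a large part of this. Without it the shares were 1.07% to 1.28% and 1.8% to 1.89% in the *fbl-1* arm, and 1.21% to 1.3% and 1.74% to 2.02% in the *fbl-2* arm.

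**Figure D1:**
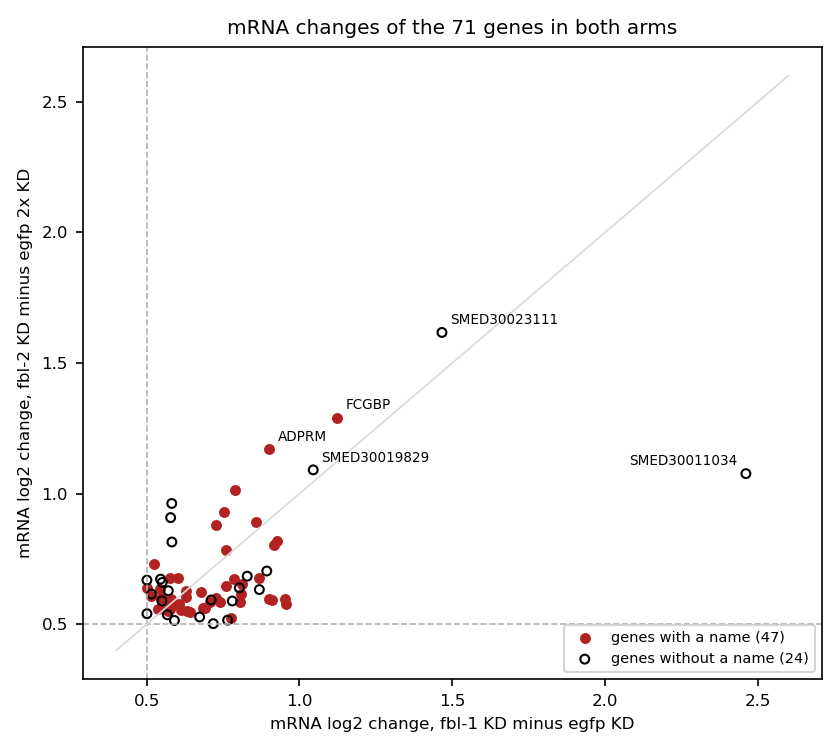
mRNA log2 difference of each of the 71 genes in the *fbl-1* arm (x axis) and the *fbl-2* arm (y axis), with the rule's limit of 0.5 as dashed lines and equality as a grey line. Filled points are the 47 genes with a name and open points the 24 without. Most points lie close to the limits, and SMED30011034 (2.46 and 1.08) and SMED30023111 (1.47 and 1.62) lie farthest out.

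Footprints were not used by the rule, and 68 of the 71 genes had enough of them to be tested. These libraries come from the same lysates as the mRNA that chose the genes, so the footprints are not independent samples, and counts over the genes are no independent support. In the *fbl-1* arm 9 of the 68 rose and none fell in limma, where 0.384% of all genes tested rose and 0.488% fell. At an unadjusted p of 0.05 it was 34 and 0, where 7.03% rose and 8.19% fell. In the *fbl-2* arm 15 of the 68 rose and none fell in limma, where 1.17% of all genes tested rose and 1.96% fell. At an unadjusted p of 0.05 it was 30 and 0, where 6.53% rose and 7.04% fell. SMED30023111, *MUC6* and the gene matched to Fucolectin-6 (SMED30024716) rose in both arms, where 0.163% of the genes tested in both arms did. The *fbl-1* count rests on single libraries. It was 0 when egfp-1 or fbl-1_3 was left out of the footprint libraries, without fbl-1_2 it was 1 and without egfp-2 it was 3. *MUC6* lost its call in that arm with any 1 of the 6 libraries left out (limma adjusted p 0.0607 to 0.241), and SMED30023111 reached 0.0697 at most. SMED30024716 lost its call in that arm in 5 of the 6 cases (limma adjusted p 0.0431 to 0.242). The *fbl-2* count was 7 without egfp_2x_1 and 9 without egfp_2x_2. The 7 that passed with every library left out in turn were SMED30023111, *FCGBP*, *ANKZF1*, *YWHAZ*, *MUC6*, *egr-5* and SMED30003777. The 8 that did not were *GM2A*, *RTP3*, *MMP13*, *MRC1*, *COL6A6*, *FBN2*, SMED30024716 and SMED30009731, and each of them lost its call without egfp_2x_1. With no filter on low values, or with a variance that did not follow the mean, neither arm had a call among these genes.

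By the values themselves, the 3 footprint libraries labelled *fbl-1* KD lay above all 3 controls for 34 of the 68 genes, where 11.3% of all genes tested did so, and overlapped for the other 34. In the *fbl-2* arm 27 lay above (9.25% of all genes tested) and 41 overlapped. In both arms at once 21 lay above, where 2.96% of the genes tested in both did. No tested gene had all 3 knockdown values below the controls in either arm, where 12.5% and 8.96% of all genes tested did. The median footprint log2 change was 0.48 in the *fbl-1* arm and 0.30 in the *fbl-2* arm, against 0.02 for all genes tested in each. It ran from −0.25 to 2.90 and from −1.16 to 1.68. The footprint change was smaller than the mRNA difference for 47 of the 68 genes in the *fbl-1* arm and for 59 in the *fbl-2* arm, with a median gap of −0.22 and −0.32. This gap is a description, since high mRNA values in the knockdowns were the condition for being chosen. The 21 genes called in at least 1 arm had a median control footprint value of 1521 in *egfp* KD, and the 50 called in neither had 355.

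**Figure D2:**
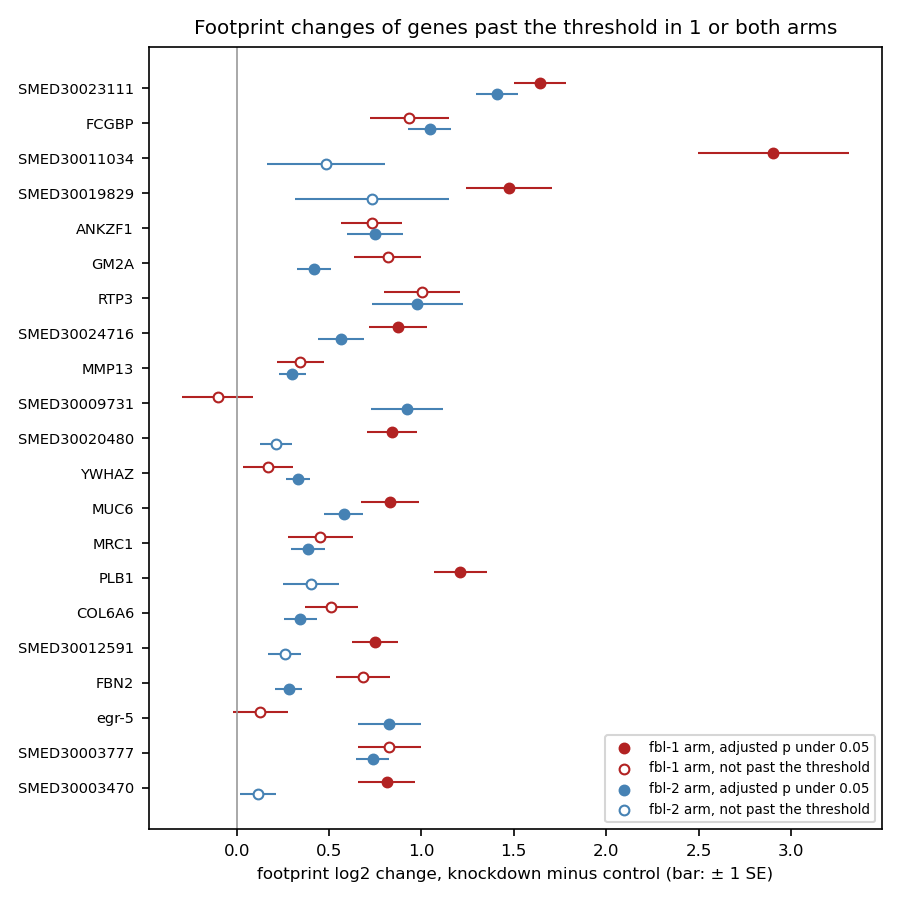
Footprint log2 change (x axis, point ± 1 SE from limma, 3 libraries against 3) of the 21 genes past an adjusted p of 0.05 in at least 1 arm, ordered by mRNA difference. Red is the *fbl-1* arm, blue the *fbl-2* arm, and filled points passed. SMED30023111, SMED30024716 and *MUC6* are filled in both arms.

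The largest joint rise belonged to SMED30023111, a gene with no protein match. SMED30023111 mRNA was 1500, 1494 and 1826 in *egfp* KD and 4076, 4810 and 4408 in libraries labelled *fbl-1* KD, a log2 difference of 1.47. SMED30023111 values in the *fbl-2* arm were 1475, 1563 and 1483 for *egfp* 2x KD and 4587, 4560 and 4725 for libraries labelled *fbl-2* KD, a log2 difference of 1.62. The rule requires every knockdown library to lie above every control, and here the gap was wide in both arms. There was little spread inside a group. SMED30023111 footprints were 1765, 2019 and 1543 in *egfp* KD and 5158, 5758 and 5642 in libraries labelled *fbl-1* KD (log2 change 1.64, SE 0.14, limma adjusted p = 0.00493). SMED30023111 footprints in the *fbl-2* arm were 1529, 1552 and 2097 and 4851, 4195 and 4582 (log2 change 1.41, SE 0.12, limma adjusted p = 7e-08). Its footprints were also apart from the controls in both arms, by amounts close to those of its mRNA. SMED30011034, likewise without a match, had the largest difference in the *fbl-1* arm. SMED30011034 mRNA was 22, 24 and 15 in *egfp* KD and 90, 134 and 124 in libraries labelled *fbl-1* KD, a log2 difference of 2.46. SMED30011034 values in the *fbl-2* arm were 141, 190 and 103 for *egfp* 2x KD and 348, 256 and 294 for libraries labelled *fbl-2* KD, a log2 difference of 1.08. The *egfp* KD controls of this gene were lower than the *egfp* 2x KD controls, which belong to another table. SMED30011034 footprints were 50, 51 and 67 in *egfp* KD and 207, 690 and 524 in libraries labelled *fbl-1* KD (log2 change 2.90, SE 0.41, limma adjusted p = 0.0173). SMED30011034 footprints in the *fbl-2* arm were 159, 132 and 161 and 160, 274 and 212 (log2 change 0.48, SE 0.32, limma adjusted p = 0.566). Library fbl-1_1 was the lowest of the 3 knockdown footprint libraries of the *fbl-1* arm, and the groups of the *fbl-2* arm overlapped at 160 and 161.

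The groups below come from gene lists of unequal size, so their counts do not rank them. Of all 2298 genes with a name, 47 were among the 71. Genes matched to mucosal and innate immune proteins were 8 of the 71, from a list of 63. *FCGBP* (SMED30020726) is matched to the IgG Fc-binding protein, a mucin-like protein secreted at mucosal surfaces in mammals. *FCGBP* mRNA was 61036, 73554 and 34204 in *egfp* KD and 118191, 106997 and 125322 in libraries labelled *fbl-1* KD, a log2 difference of 1.12. *FCGBP* values in the *fbl-2* arm were 47047, 36024 and 57145 for *egfp* 2x KD and 110134, 138184 and 93266 for libraries labelled *fbl-2* KD, a log2 difference of 1.29. The third *egfp* KD replicate was low, and every knockdown library stood above every control, as the rule requires. *FCGBP* footprints were 3007, 2295 and 3724 in *egfp* KD and 7261, 4530 and 5444 in libraries labelled *fbl-1* KD (log2 change 0.93, SE 0.21, limma adjusted p = 0.0824). *FCGBP* footprints in the *fbl-2* arm were 6532, 6469 and 5884 and 14996, 9710 and 14982 (log2 change 1.04, SE 0.12, limma adjusted p = 4.9e-06). Footprints of the groups did not overlap in either arm, and only the *fbl-2* arm passed. *MUC6* (SMED30009453) is matched to a gel-forming mucin. *MUC6* mRNA was 640, 726 and 638 in *egfp* KD and 1154, 887 and 934 in libraries labelled *fbl-1* KD, a log2 difference of 0.56. *MUC6* values in the *fbl-2* arm were 865, 640 and 694 for *egfp* 2x KD and 1040, 1257 and 947 for libraries labelled *fbl-2* KD, a log2 difference of 0.56. The smallest gap between the groups was in the *fbl-2* arm, between 865 and 947. *MUC6* footprints were 1407, 1497 and 1315 in *egfp* KD and 2972, 2071 and 2537 in libraries labelled *fbl-1* KD (log2 change 0.83, SE 0.16, limma adjusted p = 0.0448). *MUC6* footprints in the *fbl-2* arm were 2155, 2646 and 2558 and 3443, 3989 and 3538 (log2 change 0.58, SE 0.10, limma adjusted p = 0.00134). Both arms passed and no footprint library of a knockdown reached down to a control.

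TRAF proteins pass signals from tumour necrosis factor receptors and related receptors to kinases in the cell. Of the *TRAF2* matches among the 71 genes, SMED30026063 had the larger difference. The list holds further *TRAF2* matches that were not among the 71. *TRAF2* mRNA was 146, 79 and 105 in *egfp* KD and 208, 205 and 171 in libraries labelled *fbl-1* KD, a log2 difference of 0.86. *TRAF2* values in the *fbl-2* arm were 116, 119 and 95 for *egfp* 2x KD and 197, 162 and 266 for libraries labelled *fbl-2* KD, a log2 difference of 0.89. Its lowest *fbl-1* KD library was close above its highest control. *TRAF2* footprints were 86, 93 and 180 in *egfp* KD and 100, 112 and 143 in libraries labelled *fbl-1* KD (log2 change 0.05, SE 0.34, limma adjusted p = 0.956). *TRAF2* footprints in the *fbl-2* arm were 44, 141 and 18 and 81, 115 and 76 (log2 change 0.86, SE 0.64, limma adjusted p = 0.617). Footprints overlapped in both arms, and the *egfp* 2x KD libraries were widely spread. The other *TRAF2* match among the 71 (SMED30003035) had an mRNA difference of 0.63 in both arms. Those of *TRAF6* (SMED30026031) were 0.69 in the *fbl-1* arm and 0.56 in the *fbl-2* arm. *MPEG1* (SMED30019745) is matched to perforin-2, a pore-forming protein of macrophages in mammals. *MPEG1* mRNA was 70, 64 and 58 in *egfp* KD and 91, 159 and 89 in libraries labelled *fbl-1* KD, a log2 difference of 0.76. *MPEG1* values in the *fbl-2* arm were 49, 60 and 54 for *egfp* 2x KD and 108, 96 and 80 for libraries labelled *fbl-2* KD, a log2 difference of 0.78. The second *fbl-1* KD library was the highest by far. *MPEG1* footprints were 110, 95 and 109 in *egfp* KD and 96, 146 and 205 in libraries labelled *fbl-1* KD (log2 change 0.44, SE 0.32, limma adjusted p = 0.543). *MPEG1* footprints in the *fbl-2* arm were 101, 46 and 58 and 88, 55 and 77 (log2 change 0.15, SE 0.54, limma adjusted p = 0.942). Neither arm passed and both overlapped. *PGLYRP2*, matched to an amidase that cleaves bacterial peptidoglycan, and *MRC1*, matched to the macrophage mannose receptor, complete the group. *MRC1* footprints rose in the *fbl-2* arm (log2 change 0.39, limma adjusted p = 0.0174). Of the 53 other genes tested from the list of TRAF and innate immune genes, mRNA rose for 9 and fell for 2 in the *fbl-1* arm, where 2.59% of all genes tested rose and 2.45% fell. None passed in the *fbl-2* arm, where 0.162% of all genes rose and 0.201% fell. Footprints of 1 rose in the *fbl-1* arm and of 2 in the *fbl-2* arm, of 52 tested, and none fell. Every list is made of genes with a name. Of the 2095 genes with a name that were tested in the *fbl-1* arm, mRNA of 246 was higher (11.7%) and of 157 lower. In the *fbl-2* arm 0.478% of 2091 rose and 20 fell. Footprints rose for 1.59% and 3.31% of the genes with a name in the *fbl-1* and *fbl-2* arms. They fell for 25 of 2081 and 84 of 2082. These shares and counts apply to every list count that follows.

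**Figure D3:**
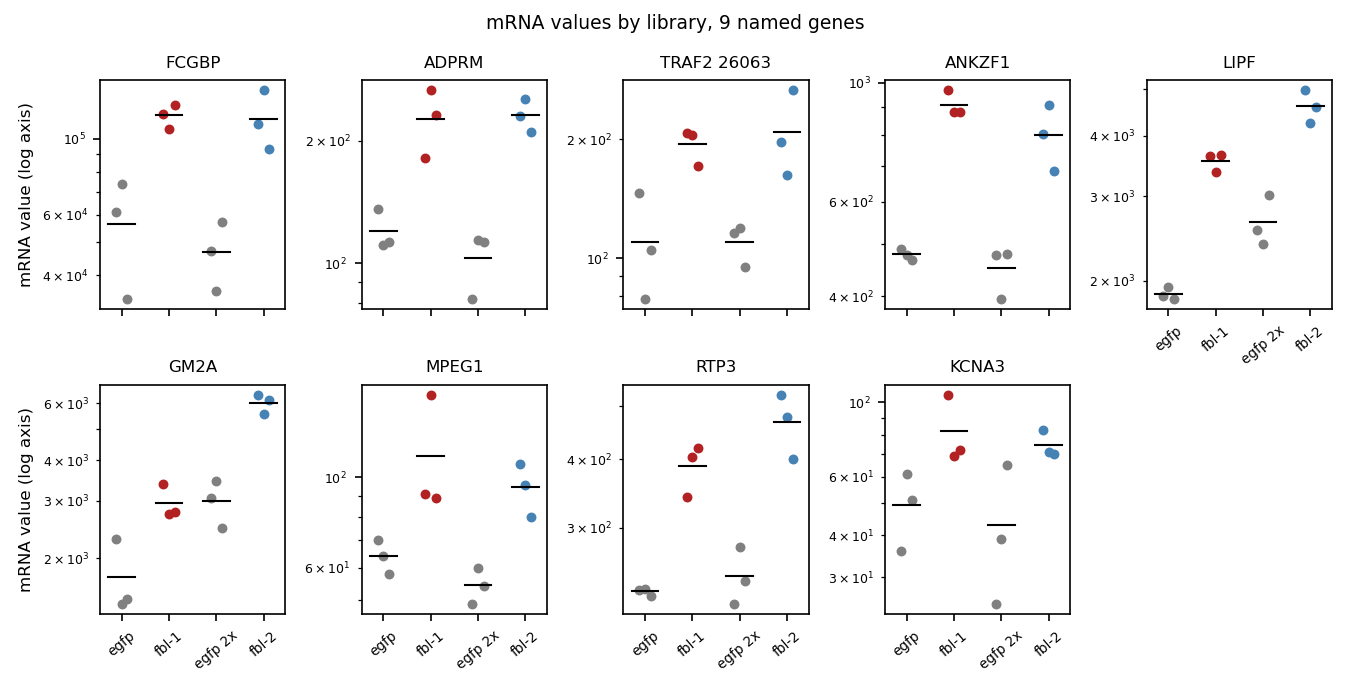
mRNA values (y axes, log scale, each panel on its own range) of 9 named genes with the largest smaller-of-the-arms differences, 1 point per library with the group mean as a line. Grey points are *egfp* KD and *egfp* 2x KD, red *fbl-1* KD and blue *fbl-2* KD libraries. In every panel both sets of 3 knockdown points lie above their 3 controls, as the rule requires.

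Secreted and membrane peptidases were 9 of the 71 genes, from a list of 25. Among them were 4 matched to *ASTL*, and *PCSK1*, *HPN* and *MEP1B*. Only unique reads were counted, so a read that aligned to several genes was left out. *ASTL* is matched to an astacin metalloprotease, and SMED30005126 led the 4. *ASTL* mRNA was 4512, 3142 and 3643 in *egfp* KD and 6757, 6088 and 6453 in libraries labelled *fbl-1* KD, a log2 difference of 0.79. *ASTL* values in the *fbl-2* arm were 3087, 3358 and 3745 for *egfp* 2x KD and 6433, 5138 and 4772 for libraries labelled *fbl-2* KD, a log2 difference of 0.67. The first *egfp* KD library was the highest control of this gene. *ASTL* footprints were 1254, 1453 and 867 in *egfp* KD and 1818, 1881 and 1496 in libraries labelled *fbl-1* KD (log2 change 0.56, SE 0.20, limma adjusted p = 0.216). *ASTL* footprints in the *fbl-2* arm were 1180, 1238 and 1509 and 1597, 1854 and 1798 (log2 change 0.42, SE 0.13, limma adjusted p = 0.0743). Footprints lay above the controls without overlap in both arms, and neither passed.

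*PCSK1* (SMED30031044) is matched to a convertase that cuts prohormones in secretory granules. *PCSK1* mRNA was 260, 255 and 242 in *egfp* KD and 478, 429 and 424 in libraries labelled *fbl-1* KD, a log2 difference of 0.81. *PCSK1* values in the *fbl-2* arm were 246, 235 and 276 for *egfp* 2x KD and 392, 466 and 341 for libraries labelled *fbl-2* KD, a log2 difference of 0.65. Controls of this gene were tightly grouped in both arms. *PCSK1* footprints were 265, 255 and 252 in *egfp* KD and 405, 482 and 431 in libraries labelled *fbl-1* KD (log2 change 0.77, SE 0.17, limma adjusted p = 0.079). *PCSK1* footprints in the *fbl-2* arm were 401, 421 and 396 and 451, 666 and 361 (log2 change 0.23, SE 0.22, limma adjusted p = 0.704). In the *fbl-2* arm fbl-2_3 lay below the controls. A pair of genes of this group were singled out after their values were seen. *ASTL* SMED30002195 had mRNA of 11973, 8214 and 9526 in *egfp* KD and 15831, 15051 and 16105 in libraries labelled *fbl-1* KD, and its footprints are listed at 0 in all 12 libraries. *MEP1B* (SMED30014093), matched to a meprin subunit, had mRNA of 100, 73 and 87 in *egfp* KD and 170, 146 and 190 in *fbl-1* KD. Its footprints were 0, 0 and 0 and 3, 1 and 1. Neither gene was tested for footprints, nor was *SYT1* within either arm, which is described further on. Among genes with a control mRNA mean of 50 or more in *egfp* KD, the ratio of footprint to mRNA value was at percentile 1.37 for *FCGBP* and 0.705 for *MEP1B*, and the median percentile of the 64 genes of the set at that level was 74.1. Of the 15 other peptidase genes tested in the *fbl-1* arm, mRNA rose for 6 and fell for 3. Of all genes with a name, 11.7% rose there and 157 of 2095 fell. In the *fbl-2* arm none of 16 peptidase genes rose and 2 fell, beside 20 of 2091 genes with a name that fell. Footprints of 2 of the 16 fell in each arm and none rose. Those of all genes with a name fell for 25 of 2081 and 84 of 2082.

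**Figure D4:**
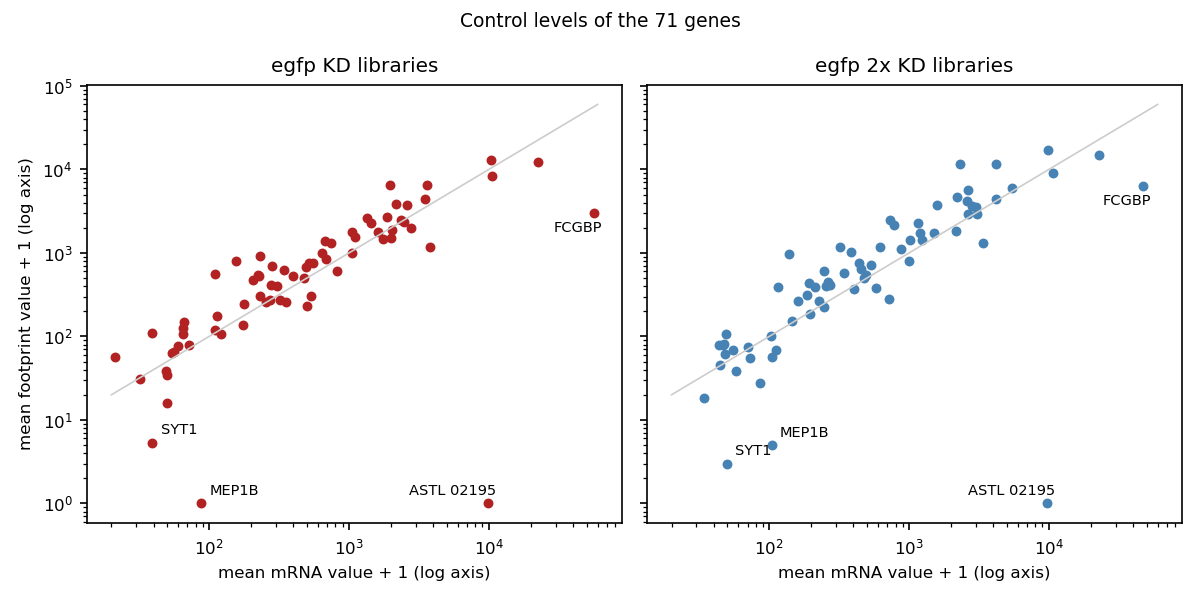
Mean control value + 1 of mRNA (x axis) and footprints (y axis), both log axes, for the 71 genes in *egfp* KD (left) and *egfp* 2x KD (right), with equal values as a grey line. The assays are scaled apart, so only the order of genes can be read. *FCGBP* is farthest right and below the line, and *ASTL* SMED30002195 sits at a footprint value of 0.

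Lysosomal and lipid-handling genes were 4 of the 71, from a list of 25. *LIPF* (SMED30003335) is matched to gastric lipase, which splits triglycerides. *LIPF* mRNA was 1858, 1944 and 1839 in *egfp* KD and 3633, 3373 and 3659 in libraries labelled *fbl-1* KD, a log2 difference of 0.92. *LIPF* values in the *fbl-2* arm were 2549, 2387 and 3009 for *egfp* 2x KD and 4972, 4263 and 4584 for libraries labelled *fbl-2* KD, a log2 difference of 0.80. The knockdown libraries stood well above the controls in both arms. *LIPF* footprints were 2526, 2258 and 3259 in *egfp* KD and 3780, 3739 and 3343 in libraries labelled *fbl-1* KD (log2 change 0.45, SE 0.16, limma adjusted p = 0.216). *LIPF* footprints in the *fbl-2* arm were 5783, 5733 and 5392 and 6524, 8160 and 6407 (log2 change 0.31, SE 0.09, limma adjusted p = 0.068). Footprints lay above the controls in both arms without passing. *GM2A* (SMED30007906) is matched to the activator that presents ganglioside GM2 to its lysosomal hydrolase. *GM2A* mRNA was 2291, 1449 and 1501 in *egfp* KD and 3389, 2736 and 2772 in libraries labelled *fbl-1* KD, a log2 difference of 0.79. *GM2A* values in the *fbl-2* arm were 3072, 3450 and 2482 for *egfp* 2x KD and 6339, 5554 and 6135 for libraries labelled *fbl-2* KD, a log2 difference of 1.01. In the *fbl-1* arm the first library of each group was the highest. *GM2A* footprints were 1294, 1223 and 1902 in *egfp* KD and 2411, 2840 and 2411 in libraries labelled *fbl-1* KD (log2 change 0.82, SE 0.18, limma adjusted p = 0.0738). *GM2A* footprints in the *fbl-2* arm were 3454, 3697 and 3382 and 4343, 5203 and 4545 (log2 change 0.42, SE 0.09, limma adjusted p = 0.00992). The *fbl-2* arm passed, and not without footprint library egfp_2x_1. *NPC2* (SMED30015889) is matched to a carrier of cholesterol inside lysosomes. *NPC2* mRNA was 122, 98 and 120 in *egfp* KD and 148, 150 and 215 in libraries labelled *fbl-1* KD, a log2 difference of 0.57. *NPC2* values in the *fbl-2* arm were 148, 169 and 165 for *egfp* 2x KD and 303, 227 and 208 for libraries labelled *fbl-2* KD, a log2 difference of 0.59. Its values were low and close to the controls in the *fbl-1* arm. *NPC2* footprints were 140, 143 and 244 in *egfp* KD and 187, 342 and 232 in libraries labelled *fbl-1* KD (log2 change 0.53, SE 0.30, limma adjusted p = 0.441). *NPC2* footprints in the *fbl-2* arm were 260, 311 and 227 and 263, 363 and 275 (log2 change 0.17, SE 0.25, limma adjusted p = 0.823). Footprints of the groups overlapped in both arms.

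*PLB1* (SMED30015566), matched to a membrane phospholipase, had footprints of 603, 619 and 578 in *egfp* KD and 1256, 1532 and 1392 in libraries labelled *fbl-1* KD (log2 change 1.21, limma adjusted p = 0.0107). The change in the *fbl-2* arm was 0.40 (limma adjusted p = 0.2). With 1 library left out, the adjusted p of *PLB1* in the *fbl-1* arm ran from 0.0165 to 0.0758. Of the 19 other lysosomal and lipid genes tested in the *fbl-1* arm, mRNA rose for 4 and fell for 2. Of all genes with a name, 11.7% rose there and 157 of 2095 fell. None of 18 lysosomal and lipid genes passed in the *fbl-2* arm. Footprints of 1 of the 19 rose in the *fbl-1* arm, beside 1.59% of all genes with a name, and none passed in the *fbl-2* arm.

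Protein quality control was represented by a pair of genes. *ANKZF1* (SMED30019513) is matched to the vertebrate counterpart of yeast Vms1, a factor that releases unfinished chains from stalled ribosomes. *ANKZF1* mRNA was 490, 478 and 468 in *egfp* KD and 968, 882 and 883 in libraries labelled *fbl-1* KD, a log2 difference of 0.93. *ANKZF1* values in the *fbl-2* arm were 478, 396 and 480 for *egfp* 2x KD and 804, 909 and 685 for libraries labelled *fbl-2* KD, a log2 difference of 0.82. Controls of the *fbl-1* arm were within a narrow range, and both knockdowns stood well clear of them. *ANKZF1* footprints were 435, 469 and 583 in *egfp* KD and 754, 849 and 850 in libraries labelled *fbl-1* KD (log2 change 0.73, SE 0.17, limma adjusted p = 0.0803). *ANKZF1* footprints in the *fbl-2* arm were 677, 689 and 554 and 986, 1190 and 1050 (log2 change 0.75, SE 0.15, limma adjusted p = 0.00468). Footprints did not overlap in either arm, and the *fbl-2* arm passed. *SQSTM1* (SMED30002916) is matched to p62, the receptor that carries ubiquitinated proteins into autophagosomes. *SQSTM1* mRNA was 298, 259 and 265 in *egfp* KD and 444, 404 and 401 in libraries labelled *fbl-1* KD, a log2 difference of 0.60. *SQSTM1* values in the *fbl-2* arm were 285, 279 and 252 for *egfp* 2x KD and 400, 408 and 504 for libraries labelled *fbl-2* KD, a log2 difference of 0.68. Differences of this gene were similar in the arms. *SQSTM1* footprints were 368, 383 and 472 in *egfp* KD and 599, 457 and 454 in libraries labelled *fbl-1* KD (log2 change 0.30, SE 0.19, limma adjusted p = 0.483). *SQSTM1* footprints in the *fbl-2* arm were 471, 344 and 428 and 647, 406 and 665 (log2 change 0.44, SE 0.21, limma adjusted p = 0.368). Neither arm passed. Of the 24 other quality control genes tested in each arm, 1 rose and 2 fell at the mRNA level in the *fbl-1* arm. There 246 of 2095 genes with a name rose (11.7%) and 157 fell. None of the 24 passed in the *fbl-2* arm. Their footprints did not pass in the *fbl-1* arm. Footprints of 7 of the 24 fell in the *fbl-2* arm and none rose, with a median log2 change of −0.27. The median of all genes with a name was 0.03 there. In that arm 1.96% of all genes tested fell, and 84 of 2082 genes with a name. The 7 included matches to the chaperones *HSPA8* (SMED30011221), *HSPA9*, *HSPA5* and *HSP90AA1* (SMED30020317 and SMED30035193). The rest were matches to the proteasome subunits *PSMD1* and *PSMD2*. They are named after their values were seen. Other *HSPA8* matches tested did not pass.

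Motile cilia drive planarian gliding and the flame cells of the protonephridia. Their list of 98 genes contributed 4, and the list of 30 for the ciliary base contributed *CEP95*. *CFAP45* (SMED30003084) is matched to a protein of the inner wall of axonemal microtubules. *CFAP45* mRNA was 264, 235 and 194 in *egfp* KD and 472, 340 and 367 in libraries labelled *fbl-1* KD, a log2 difference of 0.76. *CFAP45* values in the *fbl-2* arm were 254, 199 and 280 for *egfp* 2x KD and 383, 477 and 298 for libraries labelled *fbl-2* KD, a log2 difference of 0.65. In the *fbl-1* arm the first knockdown library was the highest. *CFAP45* footprints were 1032, 954 and 802 in *egfp* KD and 983, 1181 and 1182 in libraries labelled *fbl-1* KD (log2 change 0.27, SE 0.16, limma adjusted p = 0.454). *CFAP45* footprints in the *fbl-2* arm were 751, 513 and 557 and 747, 763 and 893 (log2 change 0.41, SE 0.17, limma adjusted p = 0.269). Footprints overlapped in both arms. *CCDC173* (SMED30015974) is matched to another axonemal protein. *CCDC173* mRNA was 257, 202 and 219 in *egfp* KD and 399, 364 and 342 in libraries labelled *fbl-1* KD, a log2 difference of 0.71. *CCDC173* values in the *fbl-2* arm were 230, 158 and 247 for *egfp* 2x KD and 316, 382 and 253 for libraries labelled *fbl-2* KD, a log2 difference of 0.59. The third *fbl-2* KD library exceeded the highest control by only a few units. *CCDC173* footprints were 418, 438 and 713 in *egfp* KD and 558, 577 and 570 in libraries labelled *fbl-1* KD (log2 change 0.16, SE 0.21, limma adjusted p = 0.749). *CCDC173* footprints in the *fbl-2* arm were 413, 373 and 369 and 340, 665 and 374 (log2 change 0.19, SE 0.23, limma adjusted p = 0.786). A high egfp-3 library overlapped the knockdowns. *DNALI1* (SMED30025181) is matched to a light intermediate chain of inner-arm dynein. *DNALI1* mRNA was 211, 164 and 243 in *egfp* KD and 355, 308 and 272 in libraries labelled *fbl-1* KD, a log2 difference of 0.60. *DNALI1* values in the *fbl-2* arm were 189, 162 and 201 for *egfp* 2x KD and 253, 303 and 269 for libraries labelled *fbl-2* KD, a log2 difference of 0.58. The mRNA groups stood apart, as the rule requires, and the footprint groups overlapped. *DNALI1* footprints were 394, 494 and 546 in *egfp* KD and 316, 484 and 542 in libraries labelled *fbl-1* KD (log2 change −0.12, SE 0.23, limma adjusted p = 0.837). *DNALI1* footprints in the *fbl-2* arm were 304, 225 and 405 and 259, 291 and 196 (log2 change −0.30, SE 0.27, limma adjusted p = 0.691). Its footprint differences were below 0 in both arms and did not pass.

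*CEP95* (SMED30000126) is matched to a centrosomal protein. *CEP95* mRNA was 287, 303 and 227 in *egfp* KD and 423, 317 and 450 in libraries labelled *fbl-1* KD, a log2 difference of 0.54. *CEP95* values in the *fbl-2* arm were 267, 157 and 250 for *egfp* 2x KD and 327, 377 and 273 for libraries labelled *fbl-2* KD, a log2 difference of 0.56. The gap between the groups was small in both arms. *CEP95* footprints were 259, 319 and 238 in *egfp* KD and 371, 322 and 332 in libraries labelled *fbl-1* KD (log2 change 0.34, SE 0.19, limma adjusted p = 0.445). *CEP95* footprints in the *fbl-2* arm were 374, 81 and 338 and 357, 283 and 383 (log2 change 0.64, SE 0.39, limma adjusted p = 0.52). Library egfp_2x_2 was far below the other footprint libraries of *CEP95*. The fourth axonemal gene, *MNS1*, had mRNA differences of 0.68 and 0.56. Of the 90 other axonemal genes tested, mRNA rose for 36 in the *fbl-1* arm, beside 11.7% of all genes with a name, and for none in the *fbl-2* arm, and none fell. Beside medians of 0.26 and 0.17 for all genes with a name, their median mRNA log2 change was 0.51 and 0.35 in the *fbl-1* and *fbl-2* arms. Their footprints rose for 6 of 90 in the *fbl-1* arm, beside 1.59% of all genes with a name, and for 15 of 91 in the *fbl-2* arm, beside 3.31%, and none fell.

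Extracellular matrix genes and their proteases were 4 of the 71, from a list of 38. *MMP13* (SMED30019930) is matched to collagenase 3. *MMP13* mRNA was 8862, 10718 and 12111 in *egfp* KD and 15429, 17278 and 15935 in libraries labelled *fbl-1* KD, a log2 difference of 0.63. *MMP13* values in the *fbl-2* arm were 10416, 10587 and 11021 for *egfp* 2x KD and 16254, 17263 and 15173 for libraries labelled *fbl-2* KD, a log2 difference of 0.60. All its values were high, and the groups were apart, as the rule requires. *MMP13* footprints were 7847, 8381 and 8551 in *egfp* KD and 10949, 10945 and 9611 in libraries labelled *fbl-1* KD (log2 change 0.34, SE 0.13, limma adjusted p = 0.242). *MMP13* footprints in the *fbl-2* arm were 9159, 9041 and 8963 and 10880, 11822 and 10790 (log2 change 0.30, SE 0.07, limma adjusted p = 0.0174). The *fbl-2* arm passed with narrow groups. It lost the call in 4 of the 6 cases with 1 library left out (limma adjusted p up to 0.0866). *BMP1* (SMED30030027) is matched to a protease that cuts procollagen. *BMP1* mRNA was 3600, 3384 and 3500 in *egfp* KD and 4694, 5866 and 5164 in libraries labelled *fbl-1* KD, a log2 difference of 0.58. *BMP1* values in the *fbl-2* arm were 5257, 5911 and 5226 for *egfp* 2x KD and 8828, 7119 and 8904 for libraries labelled *fbl-2* KD, a log2 difference of 0.59. In the *fbl-1* arm the second knockdown library was the highest. *BMP1* footprints were 4644, 4389 and 4217 in *egfp* KD and 5368, 10371 and 9107 in libraries labelled *fbl-1* KD (log2 change 0.85, SE 0.22, limma adjusted p = 0.11). *BMP1* footprints in the *fbl-2* arm were 6420, 6329 and 5227 and 6780, 8627 and 6422 (log2 change 0.27, SE 0.10, limma adjusted p = 0.197). Library fbl-1_1 was much lower than fbl-1_2 and fbl-1_3, and neither arm passed. *COL6A6* (SMED30018052) is matched to a collagen VI chain. *COL6A6* mRNA was 2125, 2139 and 2292 in *egfp* KD and 3467, 3002 and 3267 in libraries labelled *fbl-1* KD, a log2 difference of 0.57. *COL6A6* values in the *fbl-2* arm were 2120, 2067 and 2379 for *egfp* 2x KD and 3222, 3079 and 3311 for libraries labelled *fbl-2* KD, a log2 difference of 0.55. The groups of *COL6A6* were narrow in both arms. *COL6A6* footprints were 3677, 4121 and 3747 in *egfp* KD and 6033, 4680 and 5848 in libraries labelled *fbl-1* KD (log2 change 0.51, SE 0.14, limma adjusted p = 0.126). *COL6A6* footprints in the *fbl-2* arm were 4380, 4850 and 4976 and 5495, 6431 and 6134 (log2 change 0.35, SE 0.09, limma adjusted p = 0.0271). Its footprints stood apart in both arms, and the *fbl-2* arm passed.

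*FBN2*, matched to the microfibril protein fibrillin-2, had footprint changes of 0.68 (limma adjusted p = 0.0637) and 0.28 (limma adjusted p = 0.0294) in the *fbl-1* and *fbl-2* arms. Of the 32 other matrix genes tested in each arm, mRNA rose for 3 and fell for 6 in the *fbl-1* arm. Of the genes with a name, 11.7% rose there and 157 of 2095 fell. In the *fbl-2* arm mRNA rose for 1 and fell for 3, beside 0.478% that rose and 20 of 2091 that fell. Footprints of 33 other matrix genes were tested. In the *fbl-1* arm 1 fell and none rose, beside 25 of 2081 genes with a name that fell. The *fbl-2* arm had 1 that rose and 5 that fell. There 3.31% of the genes with a name rose and 84 of 2082 fell.

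Metabolic genes were 3 of the 71, from a list of 22. *PRKACA* (SMED30026769) is matched to the catalytic subunit of the cAMP-dependent kinase. *PRKACA* mRNA was 49, 45 and 50 in *egfp* KD and 78, 92 and 85 in libraries labelled *fbl-1* KD, a log2 difference of 0.81. *PRKACA* values in the *fbl-2* arm were 46, 56 and 37 for *egfp* 2x KD and 81, 69 and 63 for libraries labelled *fbl-2* KD, a log2 difference of 0.62. Values of this gene were low in all groups. *PRKACA* footprints were 43, 30 and 39 in *egfp* KD and 79, 33 and 37 in libraries labelled *fbl-1* KD (log2 change 0.31, SE 0.49, limma adjusted p = 0.797). *PRKACA* footprints in the *fbl-2* arm were 70, 38 and 132 and 68, 99 and 47 (log2 change −0.05, SE 0.57, limma adjusted p = 0.984). Footprints overlapped. *PCK1* (SMED30020848) is matched to phosphoenolpyruvate carboxykinase, which commits oxaloacetate to gluconeogenesis. *PCK1* mRNA was 510, 558 and 472 in *egfp* KD and 796, 670 and 780 in libraries labelled *fbl-1* KD, a log2 difference of 0.54. *PCK1* values in the *fbl-2* arm were 475, 329 and 511 for *egfp* 2x KD and 704, 778 and 546 for libraries labelled *fbl-2* KD, a log2 difference of 0.63. The third *fbl-2* KD library was close above the controls. *PCK1* footprints were 650, 739 and 892 in *egfp* KD and 925, 925 and 893 in libraries labelled *fbl-1* KD (log2 change 0.28, SE 0.16, limma adjusted p = 0.439). *PCK1* footprints in the *fbl-2* arm were 814, 768 and 688 and 911, 784 and 854 (log2 change 0.17, SE 0.15, limma adjusted p = 0.687). Neither arm passed. *DDO* (SMED30014835) is matched to an oxidase of D-aspartate. *DDO* mRNA was 70, 56 and 65 in *egfp* KD and 108, 77 and 97 in libraries labelled *fbl-1* KD, a log2 difference of 0.55. *DDO* values in the *fbl-2* arm were 49, 89 and 76 for *egfp* 2x KD and 137, 92 and 93 for libraries labelled *fbl-2* KD, a log2 difference of 0.60. Its groups were separated by a few units in both arms. *DDO* footprints were 183, 107 and 82 in *egfp* KD and 155, 126 and 113 in libraries labelled *fbl-1* KD (log2 change 0.15, SE 0.33, limma adjusted p = 0.86). *DDO* footprints in the *fbl-2* arm were 65, 46 and 51 and 70, 98 and 63 (log2 change 0.49, SE 0.54, limma adjusted p = 0.754). Footprints of *DDO* overlapped in both arms.

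*SYT1* (SMED30018598) is matched to synaptotagmin-1, the calcium sensor of synaptic vesicle release. *SYT1* mRNA was 47, 44 and 24 in *egfp* KD and 74, 78 and 65 in libraries labelled *fbl-1* KD, a log2 difference of 0.95. *SYT1* values in the *fbl-2* arm were 35, 51 and 60 for *egfp* 2x KD and 77, 78 and 63 for libraries labelled *fbl-2* KD, a log2 difference of 0.60. Its footprints were 1, 10 and 2 in *egfp* KD and 0, 1 and 10 in libraries labelled *fbl-1* KD, and were too low to test within either arm. *ILK* (SMED30013787) is matched to a pseudokinase that links integrins to actin. *ILK* mRNA was 340, 353 and 329 in *egfp* KD and 512, 440 and 498 in libraries labelled *fbl-1* KD, a log2 difference of 0.50. *ILK* values in the *fbl-2* arm were 323, 246 and 390 for *egfp* 2x KD and 514, 571 and 400 for libraries labelled *fbl-2* KD, a log2 difference of 0.64. The second *fbl-1* KD library was the lowest of its group. *ILK* footprints were 713, 688 and 472 in *egfp* KD and 1509, 836 and 897 in libraries labelled *fbl-1* KD (log2 change 0.76, SE 0.25, limma adjusted p = 0.191). *ILK* footprints in the *fbl-2* arm were 1218, 1318 and 979 and 1304, 1368 and 1113 (log2 change 0.11, SE 0.14, limma adjusted p = 0.789). Library fbl-1_1 was the highest, and neither arm passed. *egr-5* (SMED30029873) is the zinc finger gene that drives maturation of the planarian epidermis, and it was the only epidermal lineage marker among the 71. *egr-5* mRNA was 207, 216 and 242 in *egfp* KD and 320, 331 and 305 in libraries labelled *fbl-1* KD, a log2 difference of 0.52. *egr-5* values in the *fbl-2* arm were 225, 187 and 166 for *egfp* 2x KD and 290, 383 and 288 for libraries labelled *fbl-2* KD, a log2 difference of 0.73. The groups of *egr-5* were apart in both arms, as the rule requires. *egr-5* footprints were 573, 520 and 527 in *egfp* KD and 604, 550 and 618 in libraries labelled *fbl-1* KD (log2 change 0.13, SE 0.15, limma adjusted p = 0.715). *egr-5* footprints in the *fbl-2* arm were 466, 436 and 389 and 722, 778 and 786 (log2 change 0.83, SE 0.17, limma adjusted p = 0.00565). Only the *fbl-2* arm passed. Of the 4 other epidermal markers tested for footprints in that arm none rose and *zpuf-4* fell (log2 change −0.94, limma adjusted p = 0.0391). The summed footprints of all 5 markers were 4212 to 4369 in *egfp* 2x KD and 3782 to 3974 in *fbl-2* KD, with up to 1 of them at 0 in a library, and their part in the *egr-5* values was not tested. The early epidermal marker *prog-1* fell at the mRNA level in the *fbl-1* arm (log2 change −0.57, limma adjusted p = 0.0427).

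Other genes with large differences belong to none of these groups. *ADPRM* (SMED30025126) is matched to a manganese-dependent ADP-ribose pyrophosphatase. *ADPRM* mRNA was 136, 111 and 113 in *egfp* KD and 182, 266 and 232 in libraries labelled *fbl-1* KD, a log2 difference of 0.90. *ADPRM* values in the *fbl-2* arm were 82, 114 and 113 for *egfp* 2x KD and 230, 253 and 210 for libraries labelled *fbl-2* KD, a log2 difference of 1.17. In the *fbl-2* arm the knockdown libraries were close together, far above the controls. *ADPRM* footprints were 103, 129 and 89 in *egfp* KD and 125, 203 and 198 in libraries labelled *fbl-1* KD (log2 change 0.69, SE 0.29, limma adjusted p = 0.302). *ADPRM* footprints in the *fbl-2* arm were 103, 46 and 16 and 168, 161 and 99 (log2 change 1.68, SE 0.59, limma adjusted p = 0.158). Library egfp_2x_3 was very low. *RTP3* (SMED30013183) is matched to a receptor-transporting protein. *RTP3* mRNA was 231, 232 and 225 in *egfp* KD and 341, 404 and 420 in libraries labelled *fbl-1* KD, a log2 difference of 0.75. *RTP3* values in the *fbl-2* arm were 218, 276 and 240 for *egfp* 2x KD and 523, 478 and 401 for libraries labelled *fbl-2* KD, a log2 difference of 0.93. Controls of *RTP3* were close together in the *fbl-1* arm. *RTP3* footprints were 328, 351 and 228 in *egfp* KD and 601, 657 and 535 in libraries labelled *fbl-1* KD (log2 change 1.0, SE 0.21, limma adjusted p = 0.0587). *RTP3* footprints in the *fbl-2* arm were 213, 184 and 281 and 472, 353 and 507 (log2 change 0.98, SE 0.25, limma adjusted p = 0.0266). Footprints stood apart in both arms, and the *fbl-2* arm passed. *KCNA3* (SMED30030599) is matched to a voltage-gated potassium channel. *KCNA3* mRNA was 36, 61 and 51 in *egfp* KD and 105, 69 and 72 in libraries labelled *fbl-1* KD, a log2 difference of 0.73. *KCNA3* values in the *fbl-2* arm were 25, 39 and 65 for *egfp* 2x KD and 83, 71 and 70 for libraries labelled *fbl-2* KD, a log2 difference of 0.88. Its values were low, and the highest control was near the lowest knockdown library. *KCNA3* footprints were 51, 29 and 22 in *egfp* KD and 90, 45 and 50 in libraries labelled *fbl-1* KD (log2 change 0.86, SE 0.50, limma adjusted p = 0.446). *KCNA3* footprints in the *fbl-2* arm were 36, 60 and 136 and 67, 8 and 44 (log2 change −1.16, SE 0.78, limma adjusted p = 0.573). The *fbl-2* arm had the lowest footprint change of the set, with fbl-2_2 at 8, and did not pass.

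The list of nucleolus and ribosome biogenesis genes and the list of amino acid response and tRNA charging genes had no gene among the 71. Of 37 nucleolar genes tested, mRNA rose for 5 in the *fbl-1* arm, a share close to the 11.7% of all genes with a name, and none in the *fbl-2* arm. Footprints of 1 of the 37 rose in the *fbl-1* arm and none passed in the *fbl-2* arm. Of 27 amino acid response genes, mRNA rose for 18 in the *fbl-1* arm, beside the same 11.7%, and none in the *fbl-2* arm. Their median mRNA log2 changes were 0.64 and 0.05 in the *fbl-1* and *fbl-2* arms, beside 0.26 and 0.17 for all genes with a name. Footprints of 9 of 28 rose in the *fbl-1* arm, beside 1.59% of all genes with a name, and none passed in the *fbl-2* arm. The study's supplementary annotation gives a planarian cell type to 37 of the 71 genes. A gene can carry several, and each share of the 37 is given beside that of the 1910 annotated genes. The label was epidermal for 16 (43.2% beside 32.4%), pharynx for 13 (35.1% beside 29.2%), cathepsin-positive cell for 10 (27.0% beside 23.98%) and neural for 10 (27.0% beside 40.4%). It was intestine for 8 (21.6% beside 21.0%), protonephridia for 8 (21.6% beside 20.2%), parapharyngeal for 8 (21.6% beside 7.59%), muscle for 2 (5.41% beside 12.4%) and neoblast for 2 (5.41% beside 9.74%). No test was made, since the annotation is held only in part. All 71 genes are in the held part. In the *fbl-1* arm mRNA rose for 11.7% of genes with a name, where it rose for 2.59% of all genes tested. The annotated genes are therefore no neutral background for these shares.

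The footprint response in the *fbl-1* arm less that in the *fbl-2* arm was tested for 69 of the genes, each knockdown against its own controls. *SYT1* was included here, since its footprints met the level limit over the libraries of both arms together. None of the 69 passed (limma, smallest adjusted p = 0.131), where 0.107% of all genes tested did. An unadjusted p under 0.05 was seen for 13, where 6.12% of all genes tested had one. Of these 13, the response was larger in the *fbl-1* arm for 11 and in the *fbl-2* arm for 2, SMED30009731 and *egr-5*. The widest gap among the 13 was that of SMED30011034, at 2.42 on the log2 scale. Without footprint library fbl-1_1, 3 genes passed.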

How the data were processed

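Head, trunk and tail pieces of regenerating planarians were measured by RNA-seq and Ribo-seq, with 3 libraries in each of 4 groups per assay. Per the study's methods, reads were trimmed with Cutadapt 1.8.1 and Sickle 1.33, ribosomal reads were removed, the rest was aligned to a transcriptome with Tophat2 2.0.14, and unique reads were counted with featureCounts 1.6.2. The deposited values are signal: read numbers of a gene, multiplied by 1 factor per library and rounded. How the factor was set is not given in the sources used here, so whole reads were not recovered, no count model was run, and depth is known only as scaled totals. The RNA-seq columns were assigned to samples by title and the Ribo-seq columns to groups only.

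Tests used limma 3.58.1 in R 4.3.3 on log2(value + 1) with a variance that follows the mean, for genes with a value of 10 or more in at least 3 libraries of the comparison, with Benjamini-Hochberg adjustment over every gene tested and a threshold of 0.05. The code was tested on simulated data. An exact permutation test of 3 against 3 cannot give a p under 0.1. The difference between the arms used all 12 footprint libraries. Ratios of footprint to mRNA values have no test.

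The genes, the 14 gene lists and the tests were chosen with earlier results of these data known. Genes described in full are up to 3 per list with the largest smaller-of-the-arms mRNA difference, and the 10 named genes with the largest. Any named gene that passed in both arms and 2 without a name were added. The gene matched to Fucolectin-6 counts as without a name. Results of some genes are not reported here. Names come from the best protein match in the study's supplementary annotation, held in part. The held part contains all 71 genes and is no neutral sample of the 16575, which bears on every gene list. No sequences are shown. Alternatives were a pseudocount of 4, no filter, a minimum of 50, median-of-ratios factors, no mean trend, a replicate block and each library left out. The block for footprints, by the number at the end of the column name, was added after seeing the data.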

Additional observations from a re-analysis of the deposited data

How the results depend on the processing

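The number of genes that met the rule was 114 at a difference of 0.4 and 25 at 0.6, and stayed within 1.5 times 71 at the other limits and with median-of-ratios factors. With no filter on low values, the footprint count fell to 0 in the *fbl-1* arm, 0 in the *fbl-2* arm and 0 in both arms at once, and calls over all genes tested fell from 109 to 7 and from 394 to 16. With a variance that did not follow the mean the same counts were 0, 0 and 0, and the calls over all genes were 0 and 2. The counts in both arms at once were added after seeing the data. The cause was not tested. Over the named genes and all alternatives, 507 footprint results kept their side of the threshold in the *fbl-1* arm. There 14 lost the call and 5 gained one. In the *fbl-2* arm 484 kept their side, 41 lost the call and 2 gained one. Most results that kept their side had no call to lose. The losses in the *fbl-1* arm were those of *MUC6*, in 9 of 12 alternatives, and *PLB1*, in 5 of 12. Named genes called in the *fbl-2* arm each lost the call in 2 to 6 of 12. No footprint change of a named gene that passed in any setting turned its direction.

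With 1 library left out, the genes with higher footprints numbered 0 to 10 in the *fbl-1* arm and 7 to 15 in the *fbl-2* arm, and none fell (0 to 0 in each). Footprint calls over all genes ranged from 0 to 172 and from 187 to 559, and mRNA calls from 182 to 838 and from 13 to 91. The median footprint change of the genes ranged from 0.44 to 0.51 and from 0.25 to 0.35. Genes whose response differed between the arms numbered 0 to 3.

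The replicate block lowered the mRNA calls over all genes from 654 to 413 in the *fbl-1* arm and from 47 to 13 in the *fbl-2* arm. Deviations of same-numbered mRNA libraries correlated at 0.047, −0.137 and −0.086 in the *fbl-1* arm and at −0.150, −0.390 and −0.304 in the *fbl-2* arm. Whether same-numbered libraries share more than a number was not tested. For footprints a replicate block by the number at the end of the column name was added after seeing the data. With it 3 of the genes had higher footprints in the *fbl-1* arm, 16 in the *fbl-2* arm and 1 in both arms at once, and calls over all genes were 25 and 420. Same-numbered footprint libraries correlated at −0.079, 0.172 and −0.123 in the *fbl-1* arm and at 0.041, 0.033 and 0.0055 in the *fbl-2* arm. In neither assay did every library correlate best with its own number.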
